A study of Mus musculus with 12 samples.

Results

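The genes described here are 45 mouse imprinted genes, that is, genes transcribed mainly or only from the allele inherited from the mother or mainly or only from the allele inherited from the father. They were listed by symbol from textbook knowledge of the imprinted clusters, and 36 of the 45 were analysed, among 15309 genes tested in all. Of these 36, 16 are assigned to the maternal allele and 20 to the paternal allele. *Asb4* and *Rasgrf1* were measured at a mean level of 0.0915 and 0.0979 times the mean of the array, just under the minimum of 0.1, and were left out, while *Usp29* lay just above it at 0.101. *H19*, *Kcnq1ot1* and *Zrsr1* had no probe set listed under their symbol, and *Snrpn*, *Ube3a*, *Mirg* and *Gnas* had only probe sets listed with several genes, so no value is given for these 7. Every analysed gene was read by 1 probe set of its own.

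Expression was read from total RNA of undifferentiated embryonic stem (ES) cells by 12 Affymetrix Mouse Gene 1.0 ST arrays, to ask which genes depend on *Kdm6a*, which encodes a demethylase of lysine 27 of histone H3. PGK12.1 is a female line from blastocysts of a 129 female and a (129 X PGK)F1 male, and WD44 is a male line from BL6 blastocysts. PGK12.1 was treated with *Kdm6a* siRNAs on 4 arrays and with control siRNAs without a target on 4 arrays, and WD44 with *Kdm6a* siRNAs on 2 arrays and with control siRNAs on 2 arrays. Each *Kdm6a* RNAi array has a control array of the same experiment number. In PGK12.1, experiments 1 and 2 were double RNAi, in which 100 pmol of siRNAs for 48 h was followed by 400 pmol for 24 h. Single RNAi with 100 pmol for 48 h was used in the remaining PGK12.1 experiments, numbered 3 and 4, and throughout WD44. All cells were at passages 14 to 18, were grown with LIF on mouse fibroblast feeders and were depleted of feeders on gelatin before RNAi. Each sex is represented by 1 line, so that line, sex and strain cannot be told apart, and the arrays read the sum of the alleles, so that loss of imprinting and a change of the active allele cannot be told apart.

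Imprinted genes lie in clusters, in which DNA methylation laid down in the egg or the sperm marks a control region and is kept through early development by proteins such as ZFP57, which binds the methylated allele. In several clusters a long non-coding RNA from the paternal allele, such as *Kcnq1ot1* or *Airn*, silences neighbouring genes on that allele, and repressive histone marks that include methylation of lysine 27 of histone H3 are part of that silencing, mainly in the placenta. Maternally expressed genes such as *Cdkn1c*, *Phlda2*, *Grb10* and *Igf2r* restrain fetal or placental growth, and paternally expressed genes such as *Igf2*, *Peg3*, *Mest* and *Peg10* favour growth or placental development. Several listed genes, among them *Ddc*, *Blcap*, *Commd1* and most outer genes of the *Kcnq1ot1* cluster, are imprinted only in some tissues, and the allele given here is the one used there. In cultured ES cells imprints are known to be lost in some lines.

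The deposited log2 values fell into separate sets of arrays. In PGK12.1 the median of an array was 6.15 to 6.21 for double RNAi, 6.47 or 6.48 for experiment 3 and 8.2 or 8.21 for experiment 4. The WD44 arrays had medians of 8.03 to 8.08. Levels are therefore given as the linear value over the mean of the array, and changes are log2 differences between the 2 arrays of an experiment. Levels of different genes are not set against each other, since probes differ in brightness. *Kdm6a* itself was 0.74, 0.728, 0.691 and 1.57 times the array mean on the *Kdm6a* RNAi arrays of PGK12.1 experiments 1 to 4, against 1.81, 2.04, 1.84 and 3.05 on their controls, and 1.13 and 1.15 after *Kdm6a* RNAi in WD44, against 2.14 and 2.17 in controls. It was lower in every experiment, with a log2 change of -1.29 in PGK12.1 (SE 0.0772, adjusted p = 0.000293, limma) and -0.93 in WD44 (SE 0.109, adjusted p = 0.13, and 0.0157 without PGK12.1 experiment 4). The 9 ES cell markers summed to 68.2 to 95.4 times the array mean in PGK12.1 after *Kdm6a* RNAi and 68.3 to 97.7 in PGK12.1 controls, and to 56.6 to 58.8 in WD44 after *Kdm6a* RNAi and 57.3 to 59.4 in WD44 controls. The summed level of 12 fibroblast markers, of which 2 lay below the minimum level, was 2.04 to 3.24 in PGK12.1 after *Kdm6a* RNAi and 2.11 to 3.27 in PGK12.1 controls. In WD44 it was 3.09 to 3.16 after *Kdm6a* RNAi and 2.89 to 3.0 in controls, without overlap. For the 8 measured primitive endoderm markers the ranges were 1.6 to 2.53 (PGK12.1) and 2.25 to 2.35 (WD44). Of these lists, only the ES cell marker *Utf1*, which fell (-0.22), and the fibroblast marker *Loxl1*, which rose (0.25), passed in PGK12.1 after *Kdm6a* RNAi. Of all genes tested 5.81% passed. The median change in PGK12.1 was -0.01 for the 9 ES cell markers and -0.05 for the 10 tested fibroblast markers. The part of these markers in the results below was not tested.

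In PGK12.1 cells 7 of the 36 imprinted genes (19.4%) passed the test after *Kdm6a* RNAi, where 5.81% of all genes tested passed. *Cdkn1c*, *Sgce*, *Ddc*, *Nnat* and *Grb10* rose, which is 13.9% of the imprinted genes against 3.71% of all genes, and *Phlda2* and *Plagl1* fell, which is 5.56% against 2.1%. The changes lay between a loss of 29.9% and a gain of 35.4%. In RNA of a whole culture, a change in the number of cells that express a gene and a change per cell cannot be told apart. At an unadjusted p under 0.05, 16 of the 36 were reached (44.4%), against 22.6% of all genes. The median change of the 36 was 0.02, against 0.01 over all genes tested. The 7 genes differ in the allele assigned to them, which was not read in these cells. *Cdkn1c*, *Grb10* and *Phlda2* are assigned to the maternal allele, and *Sgce*, *Ddc*, *Nnat* and *Plagl1* to the paternal allele.

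**Figure D1:**
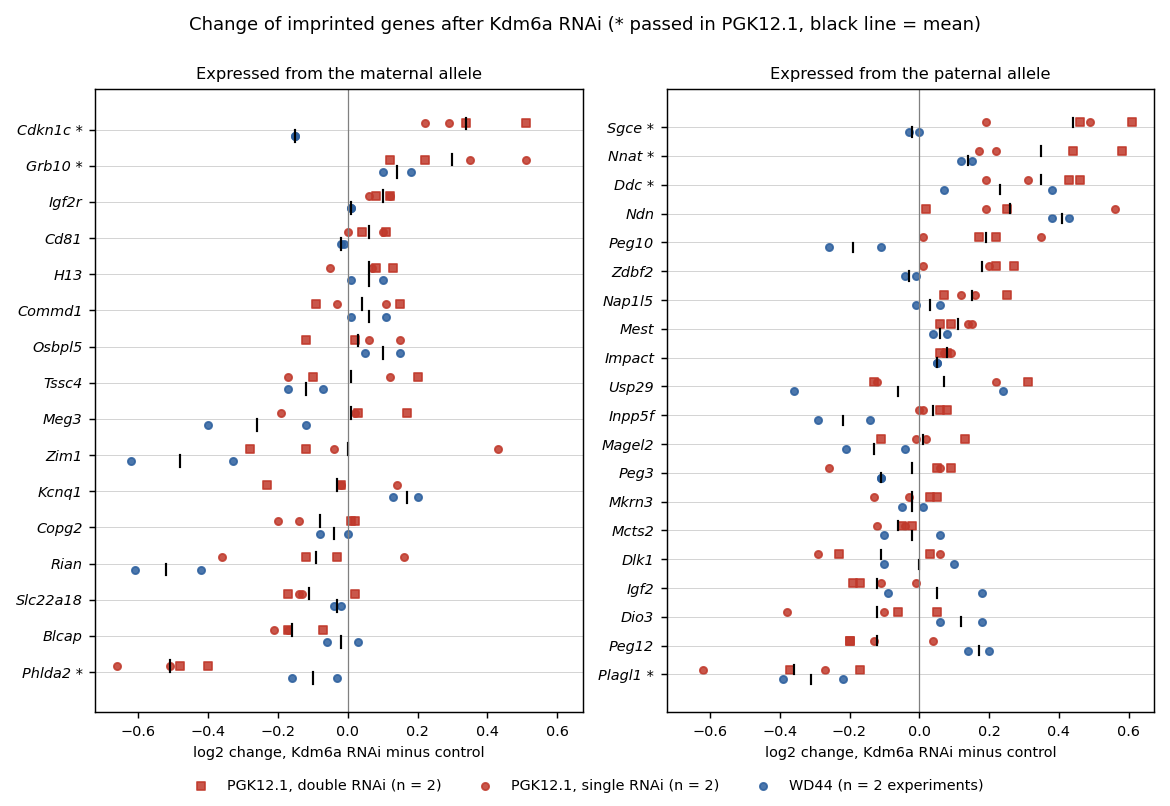
Log2 change (*Kdm6a* RNAi minus its own control, x axis) of the 36 analysed imprinted genes, with maternally expressed genes on the left and paternally expressed genes on the right. Red squares are the 2 double RNAi and red circles the 2 single RNAi experiments in PGK12.1, blue circles the 2 experiments in WD44, black lines the means, and an asterisk marks the 7 genes that passed in PGK12.1, of which *Phlda2* has the lowest mean change (-0.51) and *Sgce* the highest (0.44).

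The 2 genes that fell are *Phlda2*, which restrains growth of the placenta, and *Plagl1*, a zinc finger factor that regulates other imprinted genes. *Phlda2* (chromosome 7, probe set 10569437) was 0.462, 0.464, 0.677 and 2.85 times the array mean after *Kdm6a* RNAi in PGK12.1 experiments 1 to 4, against 0.653, 0.607, 1.07 and 4.05 in controls. The level differed more between experiments than between treatments, so the groups overlapped, but *Phlda2* was lower after *Kdm6a* RNAi within each of the 4 experiments. Its log2 changes were -0.48, -0.4, -0.66 and -0.51, a mean of -0.51 (SE 0.0518, adjusted p = 0.00114, limma). *Plagl1* (chromosome 10, probe set 10361771) was 0.414, 0.433, 0.459 and 0.763 times the array mean after *Kdm6a* RNAi, against 0.471, 0.555, 0.552 and 1.17 in controls. It was also lower in each experiment, with log2 changes of -0.17, -0.37, -0.27 and -0.62 and a mean of -0.36 (SE 0.0694, adjusted p = 0.0183). The 250 bases before the start of *Plagl1* listed by RefSeq for GRCm38.p6 lie at chr10:13090582-13090831 (plus strand). They are printed because, of the 7 genes, *Plagl1* alone has a window that holds TGCCGC or its reverse complement GCGGCA, marked by capitals. These letters are the core of the motif that ZFP57 binds when methylated. *Cdkn1c* and *Sgce* have no window in the RefSeq table. A window need not hold the control region of its cluster, and binding was not tested. The window of *Phlda2* holds neither TGCCGC nor GCGGCA and is not printed, since it lies 371 bases inside the outer bound of the annotated gene.
Plagl1: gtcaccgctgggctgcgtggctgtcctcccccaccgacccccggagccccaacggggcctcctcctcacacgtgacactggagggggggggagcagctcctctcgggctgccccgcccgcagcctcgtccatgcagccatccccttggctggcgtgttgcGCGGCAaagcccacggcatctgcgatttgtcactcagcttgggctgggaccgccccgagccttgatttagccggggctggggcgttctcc

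*Cdkn1c* lies in the *Kcnq1ot1* cluster, as *Phlda2* does, and encodes a cyclin-dependent kinase inhibitor that restrains growth. *Cdkn1c* (probe set 10569429) was 1.07, 1.17, 0.636 and 0.4 times the array mean after *Kdm6a* RNAi in PGK12.1 experiments 1 to 4, against 0.855, 0.812, 0.519 and 0.343 in controls. It was higher after *Kdm6a* RNAi in each experiment, with log2 changes of 0.34, 0.51, 0.29 and 0.22 and a mean of 0.34 (SE 0.0523, adjusted p = 0.00697). *Cdkn1c* and *Phlda2* therefore changed in opposite directions, although both are assigned to the maternal allele and to the same control region. The other 5 analysed genes of the cluster among the 45 listed, *Slc22a18*, *Osbpl5*, *Tssc4*, *Cd81* and *Kcnq1*, had mean changes between -0.11 and 0.06, and none passed. *Ascl2*, a placental transcription factor gene of this cluster outside that list, fell in PGK12.1 (-0.34, adjusted p = 0.014, limma). *Kcnq1ot1* itself was not analysed here. *Phlda2* is also a gene of trophoblast, and the 8 measured trophoblast markers summed to 2.28 to 2.74 times the array mean in PGK12.1 after *Kdm6a* RNAi, against 2.56 to 2.87 in controls, with none of the 6 tested passing. Their part in the change of *Phlda2* was not tested.

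*Grb10* encodes an adaptor that inhibits signalling through the insulin and IGF1 receptors, and *Ddc*, its neighbour on chromosome 11, the decarboxylase that makes dopamine and serotonin. *Grb10* is maternally expressed in most tissues and *Ddc* paternally in the embryonic heart. *Grb10* (probe set 10384398) was 0.523, 0.525, 0.696 and 1.34 times the array mean after *Kdm6a* RNAi in PGK12.1 experiments 1 to 4, against 0.488, 0.447, 0.545 and 0.938 in controls. Its log2 changes were 0.12, 0.22, 0.35 and 0.51, with a mean of 0.3 (SE 0.062, adjusted p = 0.0237). *Ddc* (probe set 10384378) was 0.631, 0.608, 0.358 and 0.5 times the array mean after *Kdm6a* RNAi, against 0.465, 0.447, 0.288 and 0.438 in controls. Its log2 changes were 0.46, 0.43, 0.31 and 0.19, with a mean of 0.35 (SE 0.063, adjusted p = 0.0135). These neighbours, assigned to opposite alleles in other tissues, thus rose together, *Grb10* least and *Ddc* most in the double RNAi experiments. Their upstream windows are shown because the genes rose together. The RefSeq windows of 250 bases (before the first listed start of each gene, at chr11:12037421-12037670 and chr11:11898145-11898394, both on the minus strand) held 40 CpG sites for *Grb10* and 1 for *Ddc*, with no TGCCGC on either strand.
Grb10: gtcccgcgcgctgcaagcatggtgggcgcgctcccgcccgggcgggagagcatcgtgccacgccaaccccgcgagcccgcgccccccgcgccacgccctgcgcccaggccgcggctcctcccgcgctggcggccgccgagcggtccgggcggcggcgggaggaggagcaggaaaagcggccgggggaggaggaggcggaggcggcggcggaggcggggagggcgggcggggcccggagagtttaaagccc
Ddc: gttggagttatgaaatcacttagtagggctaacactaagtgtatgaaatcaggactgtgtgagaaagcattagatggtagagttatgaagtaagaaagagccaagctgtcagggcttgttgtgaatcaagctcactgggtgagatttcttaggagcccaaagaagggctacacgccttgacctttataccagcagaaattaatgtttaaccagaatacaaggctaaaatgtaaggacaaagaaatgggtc

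*Sgce*, which encodes epsilon-sarcoglycan, a membrane protein, shares a bidirectional promoter region on chromosome 6 with *Peg10*, a gene derived from a retrotransposon that the placenta requires. *Sgce* (probe set 10542965) was 0.667, 0.728, 0.623 and 0.966 times the array mean after *Kdm6a* RNAi in PGK12.1 experiments 1 to 4, against 0.491, 0.473, 0.442 and 0.846 in controls. Its log2 changes were 0.46, 0.61, 0.49 and 0.19, with a mean of 0.44 (SE 0.0633, adjusted p = 0.0057). *Peg10* was among the brighter probe sets, between 7.98 and 12.2 times the array mean on the *Kdm6a* RNAi arrays. It had positive log2 changes of 0.17, 0.22, 0.35 and 0.01 but did not pass, with a mean of 0.19 (adjusted p = 0.0899).

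*Nnat* encodes neuronatin, a small membrane protein, and lies inside an intron of *Blcap* on chromosome 2. *Nnat* (probe set 10477986) was 0.331, 0.302, 0.29 and 0.574 times the array mean after *Kdm6a* RNAi in PGK12.1 experiments 1 to 4, against 0.224, 0.221, 0.249 and 0.51 in controls. Its log2 changes were 0.58, 0.44, 0.22 and 0.17, with a mean of 0.35 (SE 0.0664, adjusted p = 0.0158). *Blcap* was 0.07 to 0.21 log2 units lower in the 4 experiments and did not pass (mean -0.16, adjusted p = 0.0702).

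**Figure D2:**
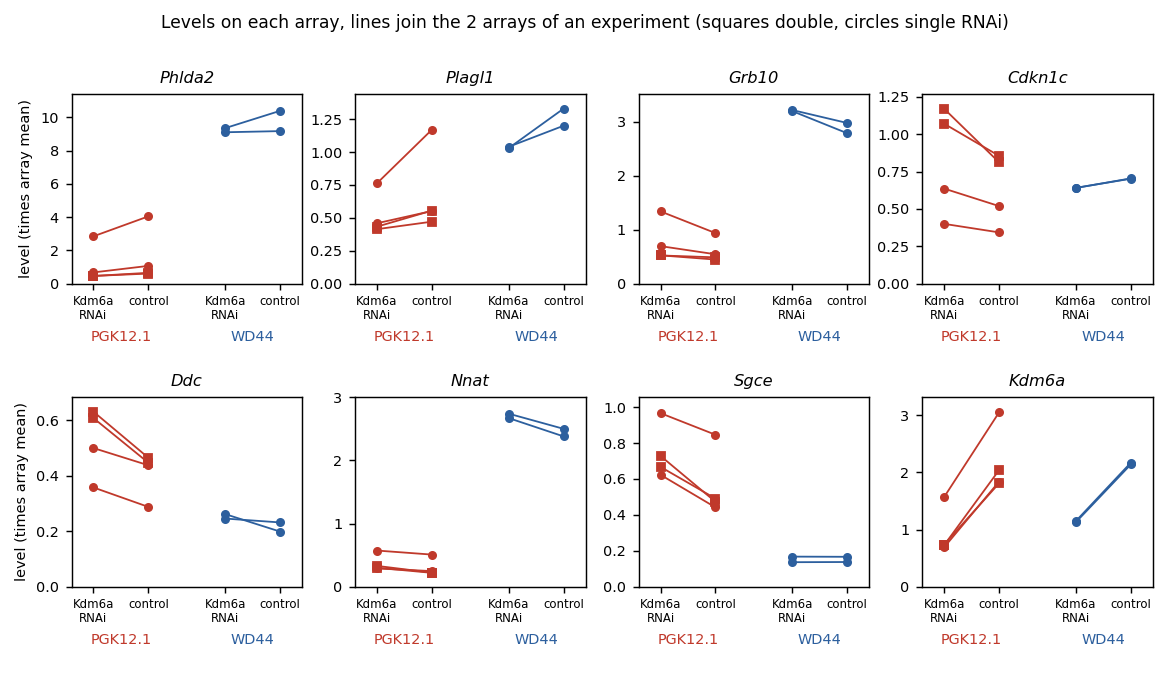
Level on each array (linear value over the array mean, y axis from 0) of the 7 imprinted genes that passed in PGK12.1 and of *Kdm6a*. Lines join the *Kdm6a* RNAi array (left) and the control array (right) of an experiment, red for PGK12.1 (squares double, circles single RNAi) and blue for WD44. All 4 red lines of *Phlda2* and *Plagl1* are lower on the left and all 4 red lines of *Grb10*, *Cdkn1c*, *Ddc*, *Nnat* and *Sgce* are higher on the left.

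The leading genes of the other clusters were close to their controls in PGK12.1. *Igf2*, the fetal growth factor, changed by -0.17, -0.19, -0.11 and -0.01 (mean -0.12, adjusted p = 0.231), and *Igf2r*, which clears IGF2 from the cell surface, by 0.08, 0.12, 0.06 and 0.12 (mean 0.1, adjusted p = 0.197). *Mest*, a hydrolase gene, changed by 0.06, 0.09, 0.14 and 0.15 (mean 0.11, adjusted p = 0.152). Both *Igf2r* and *Mest* were thus higher in each experiment by amounts that did not pass. *Peg3*, a zinc finger gene, had a mean change of -0.02, *Dlk1*, a Notch-like ligand, of -0.11, and *Meg3*, a long non-coding RNA, of 0.01, and each was higher in some experiments and lower in others. Of 4 genes in the *Dlk1/Meg3* cluster, 3 in the *Peg3* cluster and 4 in the *Snrpn/Ube3a* cluster none passed, and their mean changes lay between -0.12 and 0.26, the highest being *Ndn*. *Copg2*, *Nap1l5*, *Inpp5f*, *Impact*, *Zdbf2* and *Commd1*, each the only other gene measured of its cluster or a gene standing alone, had mean changes between -0.08 and 0.18, and none passed.

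The direction of change was also counted across experiments, from the same log2 changes that entered the test. Of the 36 imprinted genes 17 (47.2%) changed the same way in all 4 PGK12.1 experiments, against 26.9% of all genes tested, 12 of them higher and 5 lower. With WD44 included, 9 (25.0%) changed the same way in all 6 experiments, against 7.81% of all genes, and 7 of these were higher: *Igf2r*, *Mest*, *Ndn*, *Grb10*, *Ddc*, *Nnat* and *Impact*. *Phlda2* and *Plagl1* were lower in all 6. *Cdkn1c*, *Peg10* and *Zdbf2* (8.33%) were higher in all 4 PGK12.1 experiments and lower in both WD44 experiments, against 9.31% of all genes that moved in opposite ways in the lines. Genes of either parental origin moved in both directions. The median change in PGK12.1 was 0.01 for the 16 maternally expressed genes, of which 9 lay above 0, and 0.05 for the 20 paternally expressed genes, of which 12 lay above 0.

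Several of these calls were lost when an experiment was left out. Without PGK12.1 experiment 2 only *Cdkn1c*, *Sgce* and *Phlda2* passed (3 of 36, and 350 of all genes). *Nnat* then had a change of 0.32 (adjusted p = 0.0736) and *Plagl1* of -0.35 (adjusted p = 0.0706). *Ddc* did not pass without PGK12.1 experiment 1 (0.31, adjusted p = 0.0511) or 2 (0.32, adjusted p = 0.066). *Grb10* had changes of 0.33, 0.28 and 0.23 without PGK12.1 experiment 2, 3 or 4 and did not pass (adjusted p = 0.0597, 0.0733 and 0.0705). It kept its change of 0.3 but did not pass without either WD44 experiment (adjusted p = 0.0508 in both cases), which enter through the shared estimate of the spread. With double RNAi as the only PGK12.1 experiments 4 genes passed, *Cdkn1c*, *Sgce*, *Nnat* and *Phlda2* (182 of all genes). With single RNAi as the only PGK12.1 experiments 2 did, *Phlda2* and *Grb10* (101 of all genes). Both fits kept the WD44 arrays, which enter the estimate of the spread. Without the experiment as a block, which leaves the scales of the arrays in the error, 0 passed.

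In WD44 none of the 36 imprinted genes passed the test by limma, as was the case for all 15309 genes (0.0%). At an unadjusted p under 0.05, 9 of the 36 (25.0%) were reached, against 16.1% of all genes. The 3 smallest p-values belonged to *Rian*, *Ndn* and *Inpp5f*. *Rian*, a non-coding RNA expressed with *Meg3* from the maternal allele, was 0.175 and 0.193 times the array mean after *Kdm6a* RNAi in WD44, against 0.264 and 0.256 in controls. Its log2 changes were -0.61 and -0.42, with a mean of -0.52 (SE 0.106, adjusted p = 0.164). In PGK12.1 *Rian* was 0.422, 0.424, 0.36 and 0.156 after *Kdm6a* RNAi, against 0.465, 0.429, 0.322 and 0.2 in controls, a mean change of -0.09. *Ndn*, which encodes necdin, a suppressor of growth in neurons, was 1.73 and 1.97 in WD44 after *Kdm6a* RNAi, against 1.31 and 1.45 in controls (mean change 0.41, SE 0.105, adjusted p = 0.177). Its levels in PGK12.1 were 1.86, 1.73, 1.18 and 2.01 after *Kdm6a* RNAi, against 1.59, 1.69, 1.03 and 1.36 in controls, so *Ndn* was higher in all 6 experiments. *Inpp5f*, a phosphoinositide phosphatase gene, was 0.339 and 0.327 after *Kdm6a* RNAi in WD44, against 0.368 and 0.396 in controls (mean change -0.22, adjusted p = 0.192), and its change in PGK12.1 was 0.04. The fibroblast markers had a median change of 0.15 in WD44, between -0.2 and 0.26, and none of the 10 tested passed. Their part in the WD44 changes was not tested.

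The 7 genes that passed in PGK12.1 differed in what they did in WD44. *Cdkn1c* was 0.641 and 0.64 times the array mean after *Kdm6a* RNAi in WD44, against 0.702 and 0.704 in controls, a log2 change of -0.15 in both experiments. It was thus lower in WD44 and higher in PGK12.1. *Sgce* was 0.137 and 0.168 in WD44 after *Kdm6a* RNAi, against 0.138 and 0.167 in controls, a mean change of -0.02. *Phlda2* was 9.11 and 9.36 in WD44 after *Kdm6a* RNAi, against 9.18 and 10.4 in controls, a mean change of -0.1. For both genes each WD44 change was smaller in size than any PGK12.1 change. In WD44, however, *Sgce* lay near the minimum level of 0.1, and *Phlda2* ranked at the percentiles 99.5 and 99.7 in controls. Whether so dim or so bright a probe set damps a change was not tested. *Plagl1* was 1.03 and 1.04 in WD44 after *Kdm6a* RNAi, against 1.33 and 1.2 in controls, and its mean change of -0.31 was near that in PGK12.1. *Ddc* (0.262 and 0.246 after *Kdm6a* RNAi, against 0.199 and 0.232 in controls), *Nnat* (2.67 and 2.74, against 2.38 and 2.5) and *Grb10* (3.2 and 3.22, against 2.79 and 2.98) had positive mean changes of 0.23, 0.14 and 0.14.

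The difference between the responses of the lines (PGK12.1 minus WD44) was tested directly. None of the 36 imprinted genes passed by limma, nor did any of the 15309 genes (0.0%), while 10 of the 36 (27.8%) had an unadjusted p under 0.05, against 21.0% of all genes. The 3 smallest p-values were those of *Cdkn1c*, with a difference of 0.49 (95% interval 0.29 to 0.69, adjusted p = 0.0843), *Phlda2*, with -0.42 (-0.62 to -0.22, adjusted p = 0.0869), and *Sgce*, with 0.45 (0.21 to 0.7, adjusted p = 0.0932). These 3 passed when only genes at 0.25 times the array mean or above were tested (adjusted p = 0.0351, 0.0383 and 0.0476). Fewer genes were tested there, of which 267 passed. *Sgce* reaches that mean level through PGK12.1, since it lay between 0.137 and 0.168 in WD44. With a trended and robust prior the same 3 and *Peg10* passed, among 554 genes in all. For *Plagl1* the difference was -0.05 (-0.32 to 0.22), with positive differences for *Ddc*, *Grb10* and *Nnat*, whose largest was 0.22 for *Nnat* (-0.04 to 0.48). All WD44 arrays received single RNAi and 2 of the 4 PGK12.1 experiments double RNAi, and with the single RNAi experiments alone none of the 36 passed.

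**Figure D3:**
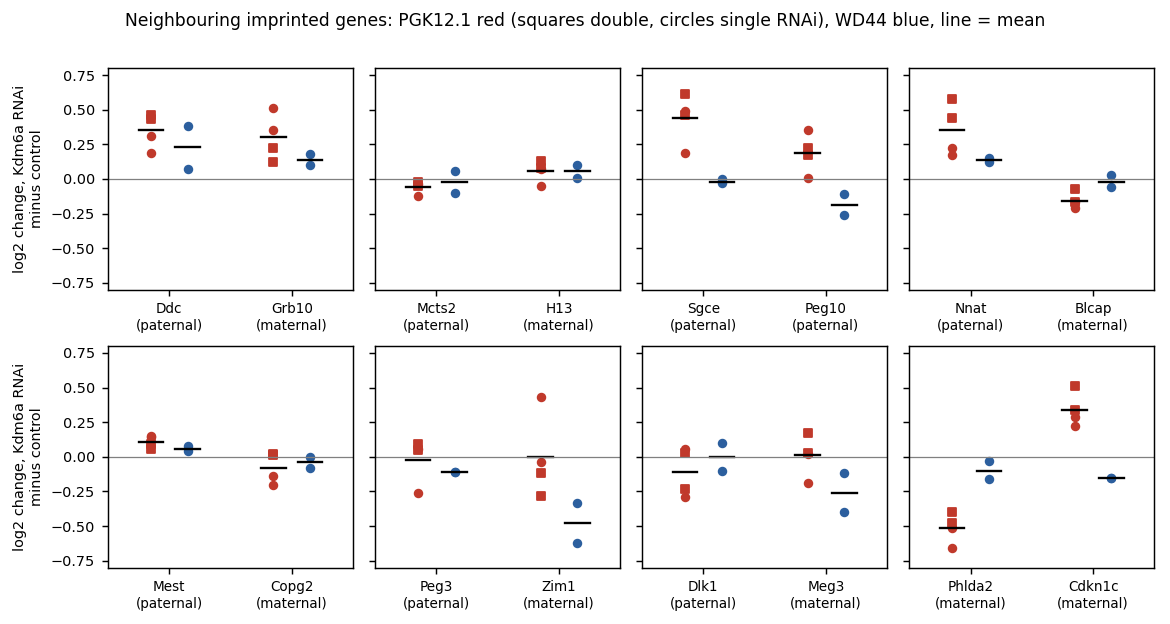
Log2 change (*Kdm6a* RNAi minus control, y axis) of 8 pairs of neighbouring imprinted genes, with the expressed allele in parentheses. Points are experiments, PGK12.1 in red (squares double, circles single RNAi) to the left of WD44 in blue, and black lines are means. *Ddc* and *Grb10* lie above 0 in all 6 experiments, *Cdkn1c* lies above 0 in PGK12.1 and below 0 in WD44, and *Phlda2* lies below 0 throughout.

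Double and single RNAi were compared within PGK12.1, where the number of rounds, the dose and the time to harvest went together and also fell on different sets of arrays, so that they cannot be told apart. None of the 36 imprinted genes passed by limma, as for all genes (0.0%), and 3 (8.33%) had an unadjusted p under 0.05, against 8.88% of all genes. The double minus single difference was 0.32 for *Nnat* (95% interval 0.12 to 0.51, adjusted p = 0.504) and -0.26 for *Grb10* (-0.47 to -0.05, adjusted p = 0.515). *Zim1*, a zinc finger gene beside *Peg3* expressed from the maternal allele, was 0.0978, 0.0831, 0.117 and 0.204 times the array mean after *Kdm6a* RNAi, against 0.12, 0.0896, 0.0868 and 0.21 in controls. Its double minus single difference was -0.4 (adjusted p = 0.531), and its level lay close to the minimum of 0.1.

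The control arrays of the lines also differed in their imprinted genes. Of the PGK12.1 controls only that of experiment 4 (median 8.21) was on a scale near that of the WD44 controls (8.07 and 8.08). Line and set of arrays therefore cannot be fully told apart here, and ranks need not remove a difference between sets. To compare arrays of different scales, each gene was given its percentile rank among all genes of its own control array, and the ranks were tested by limma as normal scores, that is, the ranks read as quantiles of a standard normal curve. Of the 36 imprinted genes 13 (36.1%) passed, against 17.9% of all genes tested, and 21 (58.3%) had an unadjusted p under 0.05, against 37.8%. PGK12.1 had higher ranks than WD44 for *Sgce*, *Peg10*, *Ddc*, *Mcts2* and *Impact* (13.9% of the 36, against 8.04% of all genes), and lower ranks for *Igf2*, *Nnat*, *Grb10*, *H13*, *Osbpl5*, *Peg3*, *Magel2* and *Phlda2* (22.2%, against 9.84%). The ranks of the lines did not overlap for 24 of the 36 (66.7%), against 51.1% of all genes. All 5 genes that passed with higher ranks in PGK12.1 are paternally expressed. Of the 8 that passed with lower ranks 4 are maternally and 4 paternally expressed. The maternally expressed *Copg2*, *Kcnq1* and *Blcap* also ranked higher in PGK12.1, without overlap between the lines, but did not pass. The median difference was -0.1 normal score units for the 16 maternally expressed genes and 0.1 for the 20 paternally expressed genes, against 0.01 for all genes.

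**Figure D4:**
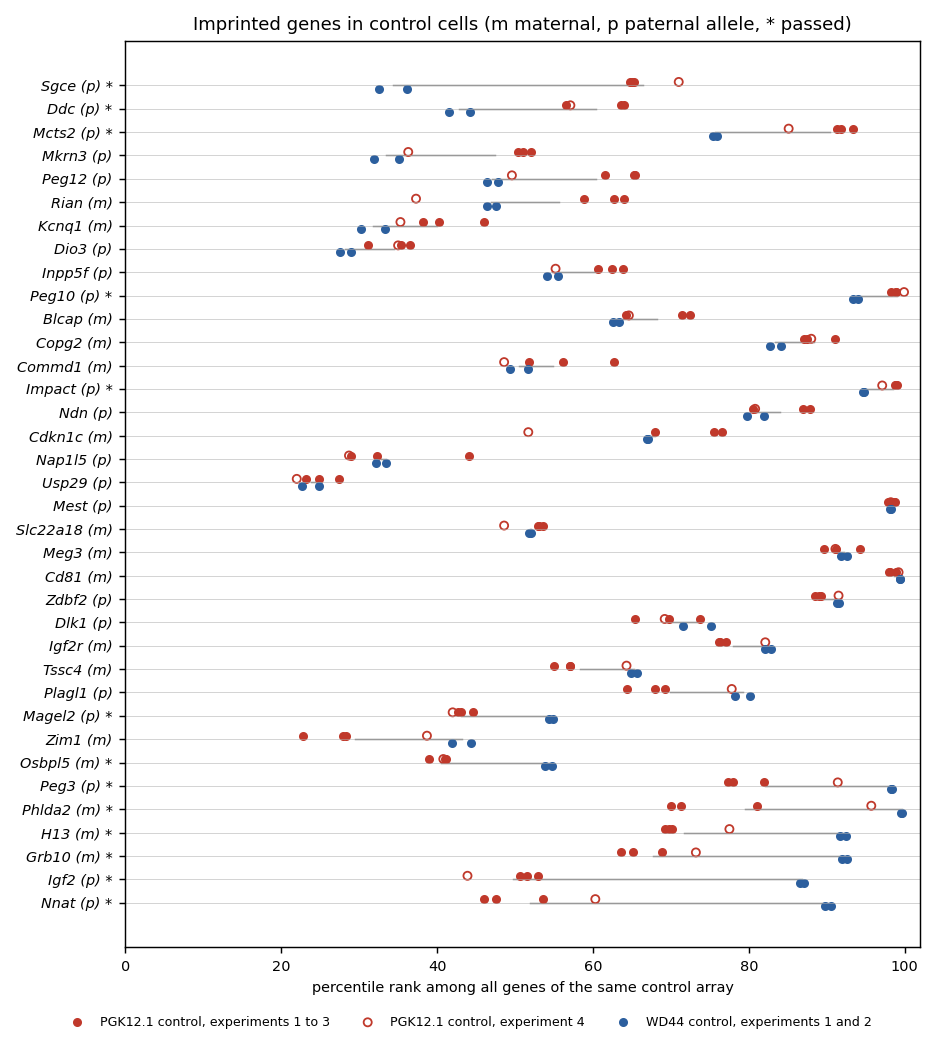
Percentile rank of the 36 imprinted genes among all genes of the same control array (x axis), PGK12.1 in red above WD44 in blue, sorted by the difference of the means, with the expressed allele in parentheses (m maternal, p paternal) and an asterisk for the 13 genes that passed. Open circles are PGK12.1 experiment 4, whose array scale is near that of WD44, and for these 13 genes they lie on the same side of WD44 as the other PGK12.1 arrays.

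*Igf2* and *Nnat* ranked far lower in PGK12.1, without overlap between the lines, which also held for 51.1% of all genes tested in either direction. *Igf2* ranked at the percentiles 50.6, 51.5, 52.9 and 43.9 in PGK12.1 control experiments 1 to 4, against 87.1 and 86.6 in WD44 controls, a difference of -1.13 normal score units (SE 0.0761, adjusted p = 0.000949). Its level was 0.24 to 0.265 times the array mean in PGK12.1 controls (0.251 in experiment 4, whose array scale is near that of WD44), against 1.97 and 1.91 in WD44 controls. *Nnat* ranked at 46.0, 47.6, 53.6 and 60.3 in PGK12.1, against 89.8 and 90.5 in WD44 (difference -1.24, SE 0.107, adjusted p = 0.00154). *Igf2r*, the receptor that removes IGF2, ranked at 77.1, 76.3, 76.2 and 82.1 in PGK12.1, against 82.1 and 82.8 in WD44, and did not pass (difference -0.16, adjusted p = 0.163).

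In 2 clusters neighbours assigned to opposite alleles both passed and took opposite order between the lines. Other such neighbours went the same way or opposite ways, without both passing. The paternally expressed *Nnat* was lower in PGK12.1 (-1.24), and the maternally expressed *Blcap* was higher (0.14) but did not pass. The differences were -1.15 for the paternally expressed *Peg3* and -0.38 for the maternally expressed *Zim1*, which did not pass. Those of the paternally expressed *Mest* (0.06) and the maternally expressed *Copg2* (0.23) did not pass. *Grb10* ranked at 65.1, 63.6, 68.9 and 73.2 in PGK12.1, against 91.9 and 92.6 in WD44 (difference -0.96, SE 0.0858, adjusted p = 0.00162). *Ddc* ranked at 64.0, 63.6, 56.6 and 57.1 in PGK12.1, against 41.5 and 44.2 in WD44 (difference 0.44, SE 0.0791, adjusted p = 0.0146). The maternally expressed *Grb10* was thus lower and the paternally expressed *Ddc* higher in PGK12.1, whereas both rose there after *Kdm6a* RNAi. *H13*, which encodes signal peptide peptidase, ranked at 69.8, 69.2, 70.1 and 77.5 in PGK12.1, against 91.7 and 92.5 in WD44 (difference -0.84, SE 0.0851, adjusted p = 0.00237). *Mcts2*, a paternally expressed retrogene in an intron of *H13*, ranked at 91.8, 91.3, 93.4 and 85.1 in PGK12.1, against 75.9 and 75.4 in WD44 (difference 0.63, SE 0.124, adjusted p = 0.0191). *Mcts2* is a copy of the X-linked gene *Mcts1*, and whether its probes also read *Mcts1* was not tested. Neither *H13* nor *Mcts2* passed after *Kdm6a* RNAi, with mean changes of 0.06 and -0.06 in PGK12.1. The RefSeq window of *Mcts2*, at chr2:152686898-152687147 on the plus strand, is shown because it holds TGCCGC, again in capitals, which the window of *H13* does not.
Mcts2: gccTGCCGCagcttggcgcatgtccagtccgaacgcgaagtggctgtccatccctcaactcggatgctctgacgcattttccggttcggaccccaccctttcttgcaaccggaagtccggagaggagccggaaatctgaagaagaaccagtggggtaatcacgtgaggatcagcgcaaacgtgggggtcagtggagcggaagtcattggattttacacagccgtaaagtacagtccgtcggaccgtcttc

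*Sgce* and *Peg10*, which share their promoter region and their paternal expression, both ranked higher in PGK12.1. *Sgce* ranked at 65.2, 64.7, 65.0 and 71.0 in PGK12.1, against 32.6 and 36.2 in WD44 (difference 0.83, SE 0.0725, adjusted p = 0.00154). *Peg10* ranked at 98.9, 98.9, 98.2 and 99.9 in PGK12.1, against 94.0 and 93.4 in WD44 (difference 0.88, SE 0.227, adjusted p = 0.0407). *Impact*, which encodes a regulator of translation, ranked at 98.9, 98.8, 99.0 and 97.1 in PGK12.1, against 94.6 and 94.8 in WD44 (difference 0.57, SE 0.124, adjusted p = 0.0251). The ranks of the lines did not overlap for any of these 3 genes, as for 51.1% of all genes tested.

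The remaining genes that passed ranked lower in PGK12.1. *Phlda2* ranked at 71.3, 70.0, 81.1 and 95.7 in PGK12.1, against 99.5 and 99.7 in WD44 (difference -1.75, SE 0.323, adjusted p = 0.0159). *Peg3* ranked at 77.9, 77.3, 81.9 and 91.4, against 98.2 and 98.3 (difference -1.15, SE 0.172, adjusted p = 0.00852). For both, experiment 4 lay nearer to WD44 than the other PGK12.1 arrays did, with ranks that differed from the WD44 mean by -3.88 and -6.8 percentile points, against -20.1 and -16.1 for the mean of the 4 PGK12.1 arrays. *Osbpl5*, a lipid transfer protein gene of the *Kcnq1ot1* cluster, ranked at 41.0, 41.2, 39.0 and 40.8, against 54.7 and 53.9 (difference -0.35, SE 0.0517, adjusted p = 0.0084). *Magel2*, a ubiquitin ligase regulator gene of the *Snrpn/Ube3a* cluster, ranked at 43.1, 42.7, 44.6 and 42.0, against 54.3 and 54.9 (difference -0.29, SE 0.0518, adjusted p = 0.0146).

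For some leading genes the ranks of the lines overlapped. *Cdkn1c* ranked at 76.6, 75.5, 68.0 and 51.7 in PGK12.1, against 66.9 and 67.1 in WD44, so that PGK12.1 experiments 1 to 3 ranked above WD44 and experiment 4 ranked below it. *Mest* lay between the percentiles 97.9 and 98.7 in PGK12.1, against 98.2 and 98.1 in WD44, and *Meg3* between 89.6 and 94.2, against 92.6 and 91.8. The ranks of *Dlk1* lay between 65.4 and 73.7 in PGK12.1, against 71.6 and 75.2 in WD44. *Rian*, which is transcribed with *Meg3*, ranked at 64.0, 62.7, 58.8 and 37.3 in PGK12.1, against 47.5 and 46.4 in WD44, and again experiment 4 alone ranked below WD44.

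The count in control cells depended on single arrays. It was 26 without PGK12.1 experiment 4, where the count over all 15309 genes also went up, to 8794 in place of 2737. Without WD44 experiment 1 or 2 it was 5 and 4, with 180 and 147 over all genes. These 2 fits hold a single WD44 array, which is assumed to vary like the PGK12.1 arrays, since the spread comes from these alone. *Sgce*, *Igf2*, *Nnat* and *Grb10* passed in both of them, and *H13* only without WD44 experiment 1 (adjusted p = 0.0534 without experiment 2). *Impact* and *Peg10* did not pass without PGK12.1 experiment 1, 2 or 3 (adjusted p = 0.0516 to 0.088), *Mcts2* not without experiment 1 or 2 (0.0572 and 0.06), and *Magel2* not without experiment 2 (0.0548). On the *Kdm6a* RNAi arrays in place of the controls the same 13 genes passed, and *Plagl1* as well, with 2486 over all genes. These arrays come from the same experiments as the controls, so they are not a separate check. Markers of the cell state also differed between the lines. Of 9 ES cell markers 5 ranked higher in PGK12.1 and 1 lower, and of 6 tested trophoblast markers 2, *Eomes* and *Krt7*, ranked lower. The shares over all genes tested were 8.04% higher and 9.84% lower. The summed level of the 8 measured trophoblast markers was 2.56 to 2.87 in PGK12.1 controls, against 3.91 to 4.03 in WD44 controls. The part of these markers in the differences of the imprinted genes was not tested.

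Across the listed genes, 39 of 45 had an upstream window in the RefSeq table. TGCCGC or GCGGCA occurred in 10 of their 58 windows (17.2%), all 10 among the 43 windows of analysed genes (23.3%), and in 2850 of all 32851 windows (8.68%), while the median number of CpG sites was 11.5, 12 and 6, so that the windows differ in base composition as well. The 9 analysed genes with the motif were *Zdbf2*, *Mcts2*, *Mest*, *Copg2*, *Nap1l5*, *Zim1*, *Osbpl5*, *Plagl1* and *Meg3*, of which *Mest* had it in 2 overlapping windows. Of the 7 genes that passed after *Kdm6a* RNAi in PGK12.1, *Plagl1* alone had it, and *Cdkn1c* and *Sgce* had no window in the table.

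Genes that maintain imprints, a further set of imprinted genes and the IGF pathway give the surroundings of these results. Of 25 genes for imprint maintenance, *Rbl2*, a pocket protein gene, rose in PGK12.1 after *Kdm6a* RNAi (0.23, adjusted p = 0.0495) and *Dppa3*, which protects maternal methylation in the zygote, fell (-0.31, adjusted p = 0.0281), and the median of the 25 was 0.01. Of 33 further imprinted genes 3 rose and 2 fell in PGK12.1. Over all genes tested 3.71% rose and 2.1% fell. *Ascl2*, a placental transcription factor gene of the *Kcnq1ot1* cluster, fell (-0.34, adjusted p = 0.014), as did *Sfmbt2*, a Polycomb-related gene (-0.31, adjusted p = 0.0088). *Ampd3* rose (0.27, adjusted p = 0.00621), as did *Pon2*, which lies near *Sgce* (0.28, adjusted p = 0.0359). None of 12 genes of the IGF axis passed. In control cells 1 of the 33 further genes ranked higher in PGK12.1 and 8 lower, among them *Airn* (-1.02 normal score units, adjusted p = 0.00187), the non-coding RNA that silences *Igf2r* on the paternal allele, and of the IGF axis 1 gene ranked higher and 5 lower, among them *Igf1r* (-0.72, adjusted p = 0.00468) and *Igfbp3* (-0.97, adjusted p = 0.00125). Over all genes tested 8.04% ranked higher and 9.84% lower.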

How the data were processed

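The authors deposited log2 values of 12 Affymetrix Mouse Gene 1.0 ST arrays, made with Affymetrix Expression Console and RMA. The versions of both, and the grouping of arrays for normalization, were not given in the sources used here. The platform annotation listed 1 symbol for 21789 of 35556 probe sets, several for 1621, which were left unnamed, and none for 12146. Where a gene had more than 1 probe set, their mean was used. Tests covered the 15309 of 19938 genes whose mean linear value was at least 0.1 times the array mean. The number of arrays limits the precision.

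Groups and experiment numbers came from the labels. Linear models were fitted by limma 3.58.1 (R 4.3.3), with the experiment as a block and 1 spread shared by the lines (residual df 4, prior df 5.66), so that PGK12.1 supplies most of the spread behind the p-values for WD44. P-values were adjusted by Benjamini-Hochberg over all genes tested, with a threshold of 0.05. Control arrays were fitted on normal scores of ranks (residual df 4, prior df 2.88). The pairing comes from the methods and the shared numbers in the labels. Deviations from group means correlated at 0.828, 0.846, 0.915 and 0.972 in PGK12.1, where the array scales raise them, and 0.265 in WD44. The study calls its array experiments independent, but whether each began from a separate culture is not given in the sources used here, so the spread may be technical in part. The code was tested on simulated data.

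The imprinted genes, the expressed alleles, which are textbook assignments, and the other lists were chosen with earlier results of these data known. Full values are given for genes that passed in any comparison, the 3 smallest p-values in each, and leading genes of clusters. Alternatives were no or a stricter minimum level (0.25), single probe sets, a trended and robust prior, quantile normalization, no block and each experiment left out. Further ones were double or single RNAi alone in PGK12.1, with WD44 kept in the fit, and the methods' t-test. Upstream windows came from RefSeq (GRCm38.p6). Figures were drawn with matplotlib 3.10.9.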

Additional observations from a re-analysis of the deposited data

Results flagged for a closer look

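Among the 4 PGK12.1 control arrays, that of experiment 4 stood apart from the other 3 in the percentile rank of 6 imprinted genes. *Slc22a18* ranked at 48.6 there, against 52.9 to 53.6 on the others, *Mkrn3* at 36.3, against 50.4 to 52.1, and *Impact* at 97.1, against 98.8 to 99.0. *Igf2r* ranked at 82.1, against 76.2 to 77.1, *Sgce* at 71.0, against 64.7 to 65.2, and *H13* at 77.5, against 69.2 to 70.1. This array also lies on another scale than the other 3. The log2 change of *Peg3* in PGK12.1 experiment 3 was -0.26, against 0.05 to 0.09 in the other 3 experiments. Each gene was tested for such a sample in its changes and in its control ranks, 72 groups in all, of which 7 stood out, and chance alone picks about 1 in 20.

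For 3 genes all 4 PGK12.1 experiments moved one way after *Kdm6a* RNAi and both WD44 experiments the other way, as did 9.31% of all genes tested (8.33% of the 36). *Cdkn1c* was higher in PGK12.1 and lower in WD44 (difference 0.49, adjusted p = 0.0843, limma), as were *Peg10* (0.37, adjusted p = 0.103) and *Zdbf2* (0.2). None of these differences passed the test, except that *Cdkn1c* did at the stricter minimum level and *Cdkn1c* and *Peg10* did with the trended and robust prior.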

How the results depend on the processing

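At a minimum level of 0.25 fewer imprinted genes and fewer genes in all were tested than at 0.1. The count of 7 imprinted genes after *Kdm6a* RNAi in PGK12.1 (890 over all genes) was 11 at a minimum level of 0.25 (1365 over all genes) and 11 with a trended and robust prior (1647). It was 4 with double RNAi (182) and 2 with single RNAi (101) as the only PGK12.1 experiments beside WD44. With 1 experiment left out it was 3 to 7 (350 over all genes at the lowest). Without the replicate block it was 0, with 0 genes overall at an unadjusted p under 0.05, and *Kdm6a* itself did not pass (-1.29, adjusted p = 1.0). By the methods' t-test it was 0 after adjustment, with 2444 genes overall at an unadjusted p under 0.05 (*Kdm6a* -1.29, adjusted p = 0.153). The fit without the block holds the scales of the arrays in its error. The difference between the lines gave 3 at a minimum of 0.25 (267 over all genes) and 4 with the trended and robust prior (554) in place of 0 (0). The 13 of the control arrays became 4 to 26 with 1 array left out, and the 2737 over all genes 147 to 8794. WD44 and double minus single RNAi stayed at 0 in every alternative run. The sign turned for *Kdm6a* double minus single RNAi (-0.43 to 0.04 with 1 experiment left out, 0.04 without PGK12.1 experiment 4) and for *Kdm6a* between the lines on the *Kdm6a* RNAi arrays (-0.05), neither of which passed. *Kdm6a* in WD44 passed in 4 of 12 alternatives (lowest adjusted p = 0.00279). Of 435 values of single genes under alternatives, 363 kept their direction and side of the threshold, 60 no longer passed, 10 newly passed and 2 turned. Changes of genes near the minimum level, such as *Zim1* and *Usp29*, rest on dim probes.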
